A study of Homo sapiens with 10 samples.

Results

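Histone H3 lysine 27 acetylation (H3K27ac) was examined at 10 genes of the epithelial to mesenchymal transition in SKBR3 and MDA-MB-453, established HER2 breast cancer cell lines. The genes were chosen by name and comprised the transcription factors SNAI1, SNAI2, ZEB1, ZEB2, TWIST1 and TWIST2, the ligand TGFB2 and the structural genes VIM, CDH2 and FN1. They were 10 of the 19970 protein-coding genes annotated on the 22 autosomes and chromosome X. Every peak that overlapped the gene, or 50 kb on either side of it, in any of the 8 peak lists was counted as belonging to its window, and merging of overlapping peaks over the lists gave 62 regions in the 10 windows of 76044 in the genome.

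Each line was profiled by ChIP-seq without treatment and after TWEAK, a cytokine of the TNF superfamily that acts through the receptor Fn14, with 2 replicates per group and no genetic alteration. Starvation in optimem lasted 8 h. TWEAK exposure was 48 h at 10 ng/ml, with fresh ligand after 24 h. Each line stands for a single tumour-derived culture, so the differences between lines are differences between SKBR3 and MDA-MB-453 only. The study's methods state that ChIP-seq of cell lines had at least 2 biological replicates. The labels do not say whether replicates came from separate cultures. All p-values therefore measure the spread between these lists, which may be partly technical.

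H3K27ac marks active promoters and enhancers. In the epithelial to mesenchymal transition, SNAI, ZEB and TWIST factors bind E-box sequences, repress epithelial genes such as that of E-cadherin and are induced by TGF-beta ligands, while N-cadherin, vimentin and fibronectin increase. Lines of luminal HER2 tumours are of epithelial origin, and a peak near one of these genes shows acetylated chromatin, not expression.

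The SKBR3 lists held 45157, 43684, 45371 and 51687 peaks (untreated replicates 1 and 2, TWEAK replicates 1 and 2) and the MDA-MB-453 lists 36148 to 37813, and the second TWEAK replicate of SKBR3 covered 106.0 Mb against 92.1 to 96.4 Mb in the other SKBR3 lists. Read depth is unknown because the lists hold no read counts, so a region absent from a list is one that was not called in it. Start sites of 12 of 12 luminal epithelial markers and of ERBB2 carried a peak in all 8 lists, whereas 0 of 3 leukocyte markers did. Of 6 fibroblast markers, COL1A1 carried one in all 8 lists and PDGFRB in the 4 SKBR3 lists, and of 3 endothelial markers VWF and CDH5 did in all 8. The part of these markers in the results was not tested.

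The mark was rare at the members' own promoters. A peak within 1 kb of the gene's own 5′ end was present in all 4 SKBR3 lists at 1 member, SNAI1, against 49.5% of protein-coding genes, and in all 4 MDA-MB-453 lists at ZEB1 and TGFB2, 2 members, against 52.3%. At 6 members (ZEB2, TWIST1, TWIST2, VIM, CDH2 and FN1) the 5′ end had no peak in any list. When every annotated transcript start was accepted, internal ones included, SNAI1 remained the only member with a start-site peak in all 4 SKBR3 lists, against 56.0% of genes. In MDA-MB-453 the count rose to 4 (ZEB1, VIM, FN1 and TGFB2), against 58.3%.

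Sequences are shown for the 2 promoters that overlapped a region merged over the lists and had an entry in the RefSeq promoter table. They are also shown for some of the regions that set the lines or the treatment apart, and for a TGFB2 region shared by all 8 lists. The table held 7 of the 10 members and not SNAI1, SNAI2 or TWIST1. Both promoters are the 250 bases before the RefSeq start on the plus strand of GRCh38.p14, chr10:31318167-31318416 for ZEB1 and chr1:218345086-218345335 for TGFB2. Capitals mark matches on either strand to the E-box CACCTG, to the AP-1 motif TGACTCA or TGAGTCA, or to the NF-kB motif. The ZEB1 promoter held 1 E-box, 57 bases before the start, and the TGFB2 promoter held none of the motifs. The printed ZEB1 bases were overlapped only by the peaks of MDA-MB-453 untreated replicates 1 and 2 and TWEAK replicate 2. The printed TGFB2 bases were overlapped only by a peak of MDA-MB-453 untreated replicate 1. No SKBR3 peak reached either stretch. Over 35116 RefSeq promoters, 17.5% held the E-box, 4.2% the AP-1 motif and 5.21% the NF-kB motif.
ZEB1 promoter: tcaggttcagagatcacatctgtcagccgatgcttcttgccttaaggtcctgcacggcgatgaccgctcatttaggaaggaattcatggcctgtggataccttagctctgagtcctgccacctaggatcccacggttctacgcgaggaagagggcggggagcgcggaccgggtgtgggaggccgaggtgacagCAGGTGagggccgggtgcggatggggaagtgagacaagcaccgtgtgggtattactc
TGFB2 promoter: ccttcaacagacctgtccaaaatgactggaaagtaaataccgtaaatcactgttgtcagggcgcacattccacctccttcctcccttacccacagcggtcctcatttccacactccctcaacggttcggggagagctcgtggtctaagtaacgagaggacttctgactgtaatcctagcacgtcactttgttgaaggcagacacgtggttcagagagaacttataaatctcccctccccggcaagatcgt

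For 5 regions, 200 bases of the hg38 plus strand are given around the match closest to the region's centre. They come from the SKBR3-only region 11.8 kb upstream of SNAI1 (chr20:49969995-49970194), the MDA-MB-453-only intronic region of FN1 (chr2:215419049-215419248), the MDA-MB-453-only intronic region of CDH2 (chr18:28039182-28039381), the CDH2 region gained with TWEAK in SKBR3 (chr18:28115276-28115475) and the highest-ranked TGFB2 region, shared by all 8 lists (chr1:218477723-218477922). Intronic here means inside the gene, since exons were not mapped. The merged TGFB2 region was shared, but its printed bases were overlapped only by peaks of SKBR3 untreated replicate 2 and TWEAK replicates 1 and 2. The printed bases of the gained CDH2 region were overlapped only by the peak of SKBR3 TWEAK replicate 2.
SNAI1 upstream region: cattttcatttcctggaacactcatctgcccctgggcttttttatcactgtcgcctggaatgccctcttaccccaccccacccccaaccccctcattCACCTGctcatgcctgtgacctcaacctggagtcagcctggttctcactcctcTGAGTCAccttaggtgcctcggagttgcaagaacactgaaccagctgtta
FN1 intronic region: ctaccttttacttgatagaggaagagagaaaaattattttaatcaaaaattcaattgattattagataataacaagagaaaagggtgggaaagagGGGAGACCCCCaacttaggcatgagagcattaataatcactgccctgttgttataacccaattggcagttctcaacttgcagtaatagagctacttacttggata
CDH2 intronic region of MDA-MB-453: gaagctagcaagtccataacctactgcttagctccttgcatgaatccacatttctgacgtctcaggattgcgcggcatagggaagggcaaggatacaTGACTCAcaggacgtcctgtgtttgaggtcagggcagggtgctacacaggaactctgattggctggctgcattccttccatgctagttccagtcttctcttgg
CDH2 region gained with TWEAK: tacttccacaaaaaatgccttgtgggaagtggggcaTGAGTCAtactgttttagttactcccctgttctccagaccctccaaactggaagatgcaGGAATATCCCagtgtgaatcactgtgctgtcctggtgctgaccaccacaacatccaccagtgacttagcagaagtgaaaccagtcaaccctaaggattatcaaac
TGFB2 downstream region: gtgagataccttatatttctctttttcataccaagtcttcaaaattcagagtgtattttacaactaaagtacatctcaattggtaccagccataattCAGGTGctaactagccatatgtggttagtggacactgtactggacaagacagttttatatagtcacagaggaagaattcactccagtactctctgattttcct

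The SNAI1 stretch held an E-box and an AP-1 match, the CDH2 stretch of MDA-MB-453 an AP-1 match, and the gained CDH2 stretch both an AP-1 and an NF-kB match. The capitals in the FN1 stretch are overlapping NF-kB matches. In 1000 bases around each region's centre, the E-box was found in 37 of 62 member regions (59.7%) and 60.5% of all regions, the AP-1 motif in 23 (37.1%) and 23.0%, and the NF-kB motif in 15 (24.2%) and 13.8%. A match describes letters and is not evidence of binding.

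The SNAI1 window had the largest difference between lines in summed width in kb, part of it at the neighbour RNF114. SNAI1, which encodes the zinc finger repressor Snail, lies on chromosome 20 (49982980-49988886, plus strand). Its window held 14, 15, 15 and 14 peaks in the SKBR3 lists, in the order given above, and 3, 4, 4 and 4 in the MDA-MB-453 lists in the same order. Their summed width was 32.6, 24.2, 32.5 and 28.8 kb in SKBR3 and 5.36, 6.63, 6.54 and 6.85 kb in MDA-MB-453. All SKBR3 values thus lay above all MDA-MB-453 values, with means of 29.5 kb ± 3.97 and 6.34 kb ± 0.667 (SD, n = 4 each).

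Widths were compared with limma across 18549 gene windows on the log2(width in bp + 1000) scale, which understates changes of narrow windows. The SNAI1 difference was 2.05 ± 0.11 (log2, SKBR3 minus MDA-MB-453, SE, adjusted p = 4.25e-06). Of the 62 member regions, 14 were present in all SKBR3 lists and in no MDA-MB-453 list, and 8 of these lay in the SNAI1 window. Among all regions, 14.1% had that pattern. The SNAI1 promoter itself (chr20:49982307-49983392) was among the 8, with peaks of 1070, 1055, 1050 and 981 bp at percentiles 71.9, 67.8, 72.6 and 58.9 of their lists. A percentile is the share of peaks in the same list that score no higher, and it was used because scores of different lists are not on a common scale.

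Between 37.1 kb upstream of the SNAI1 start and 35.7 kb downstream of it, MDA-MB-453 had no peak. The top-ranked peak of the window was centred 37.1 kb downstream of the start in MDA-MB-453 (percentiles 84.1 to 86.3) and lay over the start of the neighbour RNF114 in SKBR3 (88.0 to 94.2). The RNF114 start had a peak in all 8 lists, so the top percentile of this window is partly that of another gene. The same holds for the summed width. The peak over the RNF114 start was the widest of the window, at 12.3, 10.8, 11.8 and 9.75 kb in SKBR3. In MDA-MB-453 it measured 2.79, 3.18, 2.69 and 2.78 kb. Limited to the SNAI1 gene body, the line difference was called by limma (adjusted p = 0.000181), and no fold is given because MDA-MB-453 is at 0.

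SNAI2 and ZEB1 went the other way. SNAI2, which encodes Slug, had no peak in its window in any SKBR3 list and 1, 2, 2 and 1 peaks in MDA-MB-453, with summed widths of 1.85, 2.13, 2.0 and 2.07 kb. The main SNAI2 region lay 2.83 kb upstream of the start in all 4 MDA-MB-453 lists at percentiles 57.6 to 60.2. A second, at the start itself, was called in untreated replicate 2 and TWEAK replicate 1 only, at percentiles 26.8 and 6.68. SNAI2 was called by limma (adjusted p = 3.77e-06), and no fold is given because SKBR3 is at 0.

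ZEB1, a zinc finger homeobox repressor, had a single peak, at its promoter (chr10:31318169-31319128). Its width was 486, 407 and 360 bp in 3 SKBR3 lists, with none called in the second TWEAK replicate, and 790, 747, 651 and 892 bp in MDA-MB-453. The percentiles were 53.1, 40.4 and 16.4 in SKBR3 and 67.7, 70.9, 60.7 and 54.0 in MDA-MB-453. Each MDA-MB-453 list thus exceeded each SKBR3 list in both measures, and the width difference was -0.45 ± 0.12 (log2, limma adjusted p = 0.0139).

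ZEB2 and TWIST2 were higher in SKBR3, and TWIST1 was nearly devoid of the mark. The ZEB2 window summed to 5.21, 6.12, 4.33 and 6.85 kb in SKBR3 and 2.5, 2.79, 2.47 and 2.49 kb in MDA-MB-453, a difference of 0.88 ± 0.14 (log2, limma adjusted p = 0.000779). Both ZEB2 regions shared by all lists lay 170 kb or more from the ZEB2 start, 1 of them at the start of the neighbour GTDC1. Within the ZEB2 gene, only SKBR3 untreated replicate 2 and TWEAK replicate 2 had a peak, 1.24 and 1.1 kb wide, and the gene-body difference was not called (limma adjusted p = 0.183).

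TWIST2 encodes a basic helix-loop-helix factor, and its window had no peak in MDA-MB-453. In SKBR3 its intragenic peaks summed to 1.38, 0.734, 0.653 and 1.97 kb, at top percentiles of 13.3, 49.3, 52.6 and 32.2. It was called by limma (adjusted p = 0.00186) but not with lists cut to peaks of q under 1e-05 (adjusted p = 0.227) or to equal size (0.0559).

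TWIST1, the paralogue of TWIST2, had a peak only in the second TWEAK replicate of SKBR3 (829 bp, percentile 24.5) and 3 low peaks in MDA-MB-453 (percentiles 7.71, 3.62 and 9.91), 107 kb or more from its start. TWIST1 did not pass the test between lines (-0.35 ± 0.23, limma adjusted p = 0.205), though it did with equal list size (-0.56, adjusted p = 0.0143) and without the second TWEAK replicate of SKBR3 (adjusted p = 0.0379). The start of its neighbour FERD3L had no peak in any list.

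**Figure D1:**
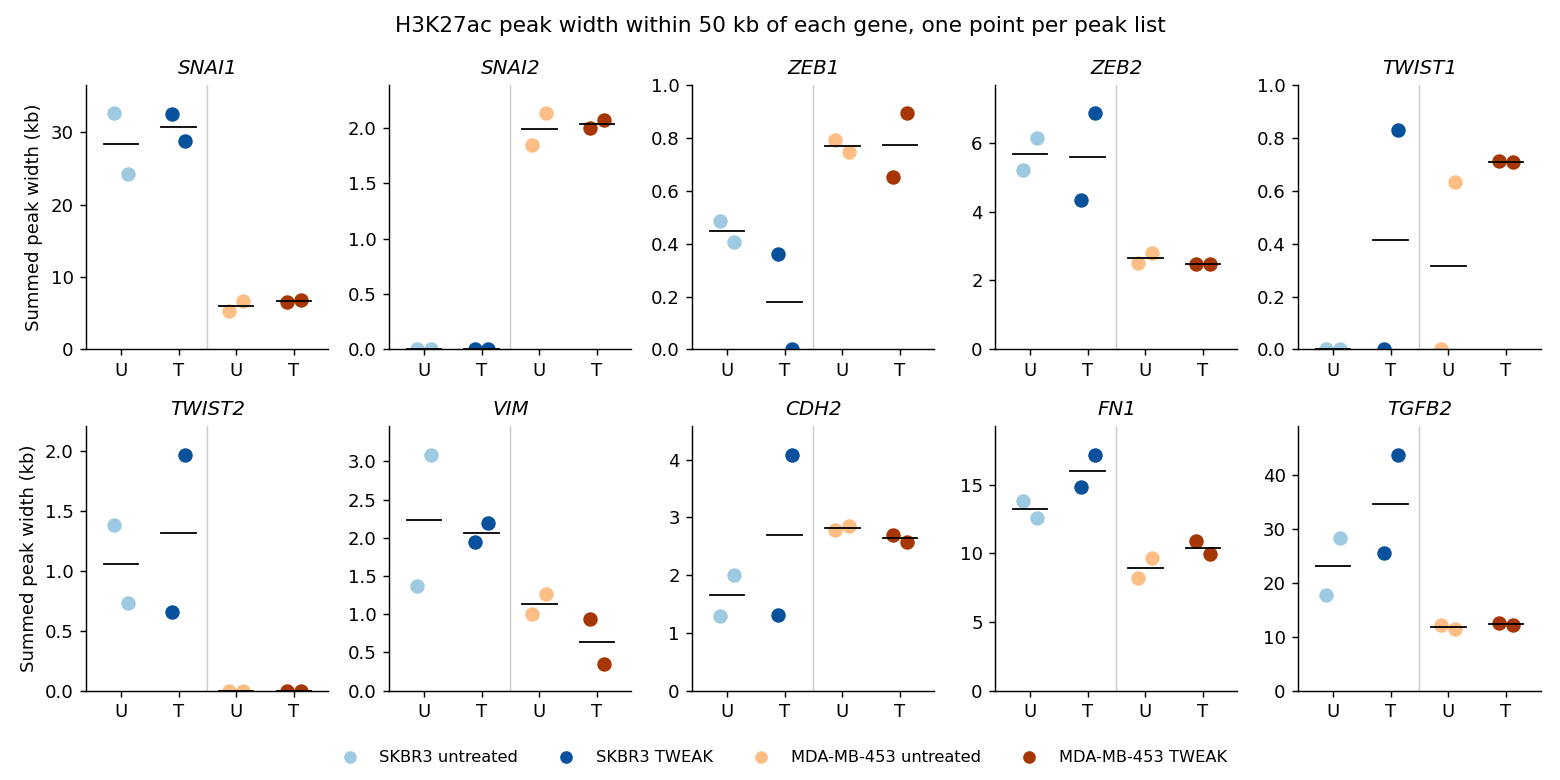
Summed width of H3K27ac peaks (kb) in the window of each gene, with 1 point per peak list, untreated (U) and TWEAK (T), and bars at the mean of 2 lists. SNAI1, ZEB2, TWIST2, VIM, FN1 and TGFB2 sat higher in SKBR3, SNAI2 and ZEB1 in MDA-MB-453, and the vertical scale differs between panels.

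TGFB2, the ligand of the group, had the highest mean top percentile of the 10 members in both lines (94.7 ± 3.25 in SKBR3, 96.7 ± 0.774 in MDA-MB-453, SD, n = 4 each). TGFB2 lies on chromosome 1 (218345336-218444619, plus strand), and its window held 11, 14, 14 and 15 peaks in SKBR3 and 9 in every MDA-MB-453 list. Summed widths were 17.8, 28.4, 25.5 and 43.8 kb in the SKBR3 lists and 12.1, 11.5, 12.6 and 12.1 kb in MDA-MB-453. The lines did not overlap (1.13 ± 0.20, log2, limma adjusted p = 0.00141), and SKBR3 varied far more than MDA-MB-453 (SD 10.9 kb against 0.475 kb).

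The top TGFB2 peak of each list lay in a merged region that began 128 kb downstream of the start, beyond the end of the gene (chr1:218473276-218482896). SKBR3 TWEAK replicate 2 had a single peak across this region. The other lists had separate peaks within it, so the ranks need not be of the same peak. The highest peak there ranked at percentiles 90.6, 96.1, 93.7 and 98.2 in SKBR3 and 95.8, 96.9, 97.6 and 96.6 in MDA-MB-453. Those ranges overlapped, and no difference was detected (exact permutation test over 70 assignments, two-sided, p = 0.314), while the difference in means was -2.05 percentile points. TGFB2 therefore differed between lines in extent and not detectably in rank, with 5 regions present in all 8 lists, 3 in SKBR3 only and 2 in MDA-MB-453 only.

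Near the TGFB2 start, the called peaks lay at different positions in the lines, which does not show which start is transcribed. In MDA-MB-453 a peak of 1043, 468, 374 and 336 bp covered the 5′ end or began within 1 kb of it, at percentiles 28.3, 13.8, 24.2 and 40.4. In SKBR3 the 5′ end had none, and 3 lists had a peak that began 1.47 to 1.82 kb into the gene, over an alternative start, of 2282, 708 and 2866 bp at percentiles 26.6, 24.6 and 55.7. These peaks ranked at percentile 40.4 or below in their lists, except that of SKBR3 TWEAK replicate 2 at 55.7.

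The structural genes VIM, CDH2 and FN1 had no peak within 1 kb of their own 5′ ends. VIM encodes the intermediate filament vimentin, and its gene carried 1 region, 1.68 kb or more inside the 5′ end (chr10:17229925-17231150), in 3 SKBR3 and 4 MDA-MB-453 lists. Its widths there were 1183, 515 and 735 bp in SKBR3 and 657, 742, 481 and 349 bp in MDA-MB-453, and the gene-body difference was 0.0 ± 0.24 (log2, limma adjusted p = 0.995). The wider window of VIM was higher in SKBR3 (0.74 ± 0.20, log2, limma adjusted p = 0.012) and included an SKBR3-only region 49.9 kb downstream at percentiles 53.2 to 58.7. That call was lost with peaks of q under 1e-05 (adjusted p = 0.168) and without MDA-MB-453 untreated replicate 1 (0.0553) or TWEAK replicate 2 (0.055). The start of the neighbour TRDMT1 had a peak in 1 SKBR3 and 3 MDA-MB-453 lists.

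CDH2 encodes N-cadherin, the adhesion molecule that replaces E-cadherin in the transition. Its summed width was 1.3, 2.0, 1.31 and 4.09 kb in SKBR3 and 2.79, 2.85, 2.7 and 2.58 kb in MDA-MB-453, and the window was not called between lines (-0.31 ± 0.24, log2, limma adjusted p = 0.272). The second TWEAK replicate of SKBR3 lay above all MDA-MB-453 lists and the other 3 below them, and without it the difference was -0.6 ± 0.11 (adjusted p = 0.00589). Within the gene, an intronic region (chr18:28038975-28040478) was present in all MDA-MB-453 lists at percentiles 36.4 to 51.1 and in no SKBR3 list, and the gene-body difference was -0.84 ± 0.17 (log2, limma adjusted p = 0.00642). A region 254 kb from the start, outside the gene, was in all 8 lists and set the higher top percentile of SKBR3.

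FN1 encodes fibronectin, and the direction of its difference depended on the window. Over the full window it was higher in SKBR3, with 13.8, 12.6, 14.8 and 17.2 kb against 8.19, 9.64, 10.9 and 9.94 kb (0.55 ± 0.09, log2, limma adjusted p = 0.000982). Within the gene it was higher in MDA-MB-453, with 1.99, 2.21, 1.85 and 4.51 kb in SKBR3 against 4.66, 4.8, 6.07 and 4.78 kb (-0.79 ± 0.21, log2, limma adjusted p = 0.0184). The flank included the start of the neighbour ATIC, marked in all 8 lists, and an SKBR3-only region inside ATIC (chr2:215327359-215332046) at percentiles 79.5 to 84.9.

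Inside FN1, the region near its 3′ end (chr2:215360515-215362992), 73.1 kb from the 5′ end, ranked at 31.9, 42.0, 29.6 and 32.2 in SKBR3 and at 60.9, 62.0, 63.4 and 66.4 in MDA-MB-453, with no overlap. The MDA-MB-453-only intronic region (chr2:215417478-215420310) lay 15.8 kb from the 5′ end and 0.96 kb from an annotated internal start, at percentiles 32.1 to 38.8. It was 1 of 5 member regions in all MDA-MB-453 lists and no SKBR3 list, the others being those of SNAI2 and CDH2 and the pair of TGFB2. Among all regions 10.5% had that pattern, and 15 member regions were in all 8 lists, against 23.3% of all regions.

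**Figure D2:**
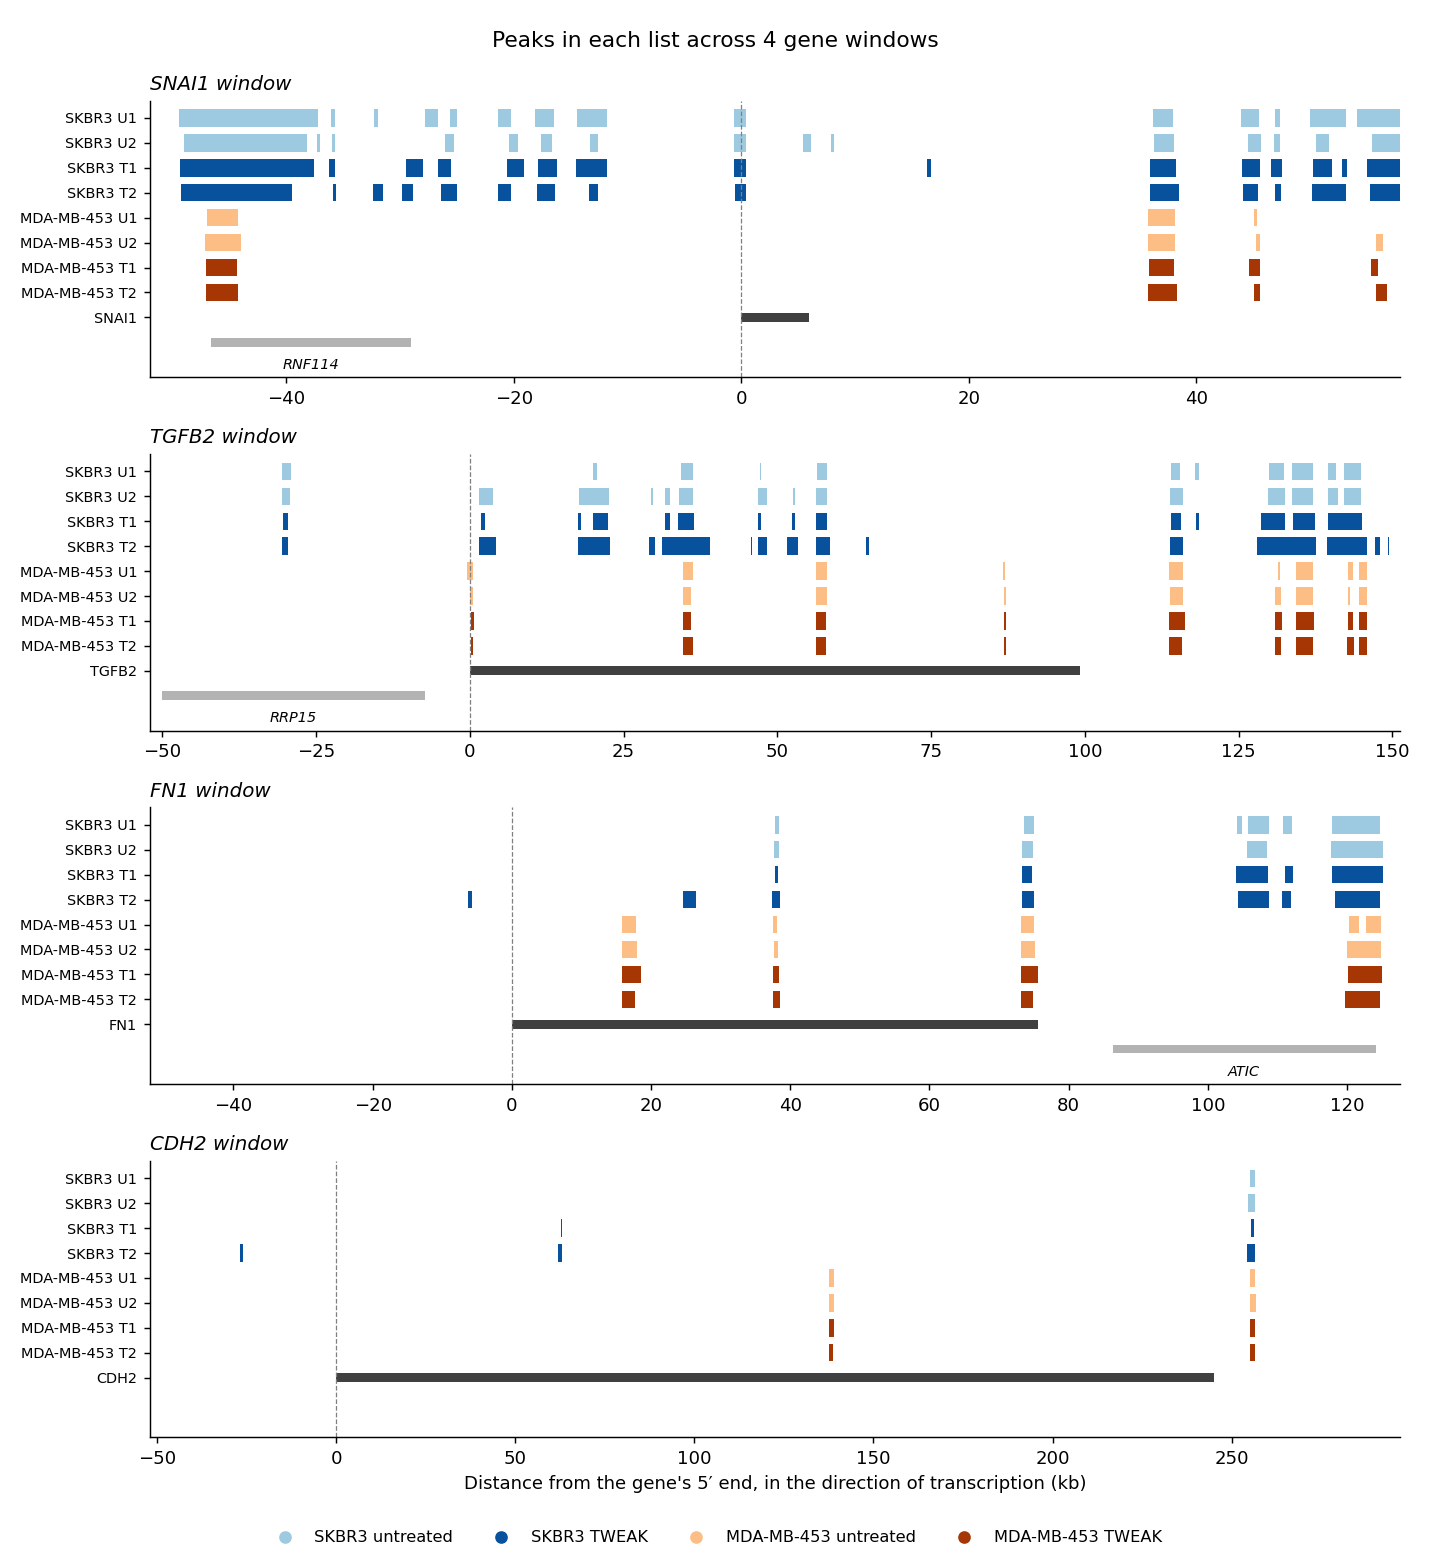
Peaks in each of the 8 lists (rows, untreated U and TWEAK T) across the windows of SNAI1, TGFB2, FN1 and CDH2, by distance from the gene's 5′ end in kb, with the gene in dark grey and neighbouring protein-coding genes in light grey. SKBR3 has peaks at and upstream of the SNAI1 start where MDA-MB-453 has none, and the intronic peaks of FN1 at 15.8 kb and of CDH2 at 137 kb are in MDA-MB-453 only.

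Over all 10 windows, 6 members were called wider in SKBR3 (SNAI1, ZEB2, TWIST2, VIM, FN1 and TGFB2) and 2 wider in MDA-MB-453 (SNAI2 and ZEB1). The background was high, since 46.8% of the tested windows were called wider in SKBR3 and 26.3% wider in MDA-MB-453, and the members' median difference was 0.64 against 0.23 for all genes (log2). After each list's median was subtracted, 49.6% of all calls favoured SKBR3 instead of 64.0%, and the 8 members stayed called in their direction while CDH2 (-0.56, adjusted p = 0.0394) and TWIST1 (-0.59, adjusted p = 0.028) joined those wider in MDA-MB-453. With the gene body alone, 3 members were called wider in SKBR3 (SNAI1, TWIST2 and TGFB2) and 3 in MDA-MB-453 (ZEB1, CDH2 and FN1). The shares above are those of the 50 kb windows, and none is given here for gene bodies.

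The top percentile did not overlap between lines at 8 members. It was higher in SKBR3 at 6 (SNAI1, ZEB2, TWIST2, VIM, CDH2 and FN1), against 34.3% of windows, and higher in MDA-MB-453 at 2 (SNAI2 and ZEB1), against 27.6%. The top rank of FN1 came from the region at the start of the neighbour ATIC in every list. That of ZEB2 came from the start of the neighbour GTDC1 in MDA-MB-453 and in SKBR3 TWEAK replicate 1. These ranks are thus wholly or partly those of other genes. For each of the 8 the exact two-sided permutation test over 70 assignments gave p = 0.0286, the smallest it allows, and 0.0461 after Benjamini-Hochberg adjustment over all genes. Lack of overlap fixes this p in advance, so it adds no support beyond the lack of overlap itself. With lists of equal size, ZEB2, FN1, SNAI2 and ZEB1 were the 4 that still did not overlap. The share of all windows with equal lists is not given here.

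**Figure D3:**
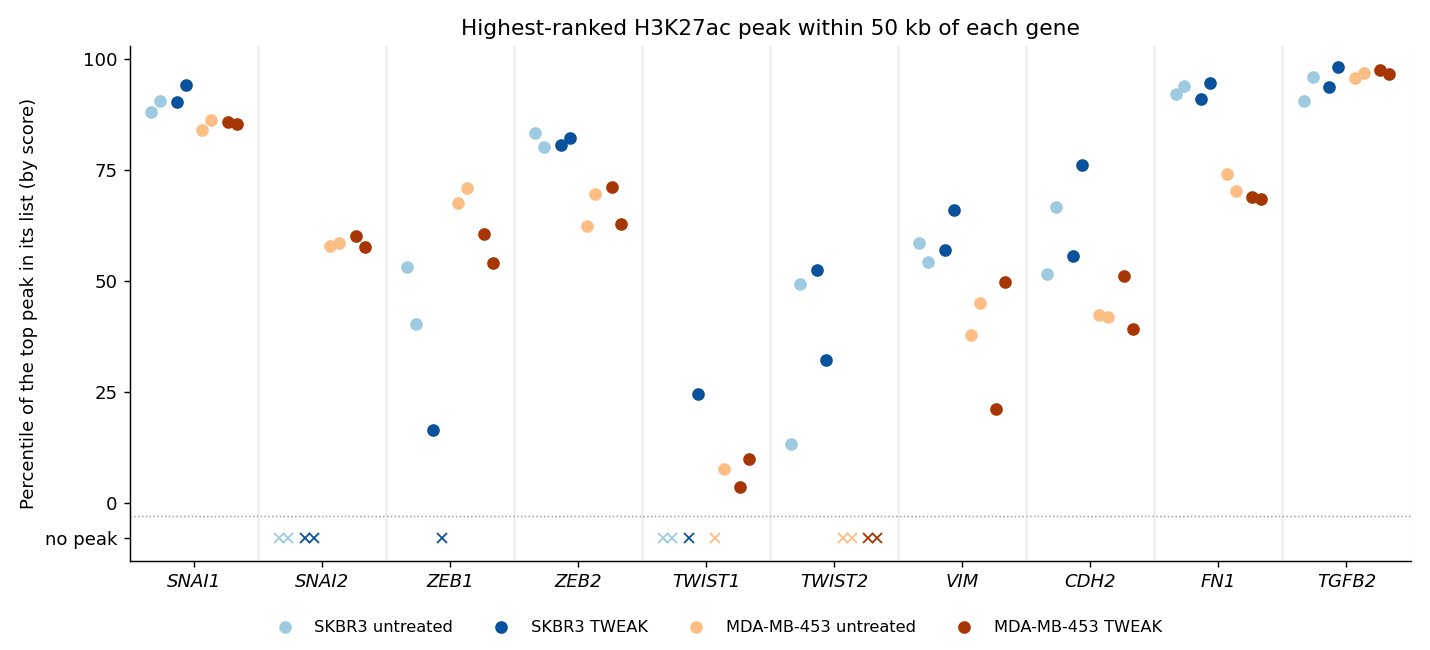
Percentile, within its own list, of the top-ranked peak in the window of each gene, with 1 point per list and crosses where the window had no peak. FN1 and ZEB2 separate the lines with SKBR3 on top, SNAI2 and ZEB1 with MDA-MB-453 on top, and TGFB2 lies above 90 in all 8 lists. The points of FN1, and those of ZEB2 in MDA-MB-453, are ranks at the starts of the neighbours ATIC and GTDC1.

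No member was called with TWEAK in summed width with all 8 lists and no replicate block. In SKBR3, 0 of 10 were called wider and 0 narrower by limma, against 1.57% and 0.205% of all windows, and 0 had an unadjusted p under 0.05. In MDA-MB-453 the count was also 0 in both directions, against 0.00539% and 0% of windows, again with 0 at an unadjusted p under 0.05. The test of line by TWEAK called 0 members, against 0% of windows, with 0 at an unadjusted p under 0.05 and adjusted p of 0.819 or more. With 2 lists per group these tests could miss changes of the size seen between replicates. The fit shares the spread of a gene over all 8 lists, so SE and p-values in MDA-MB-453 include the spread of SKBR3.

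The largest TWEAK difference was that of TGFB2 in SKBR3, from 17.8 and 28.4 kb to 25.5 and 43.8 kb. These values overlapped, and the difference was 0.55 ± 0.28 (log2, limma adjusted p = 0.433). It was 0.17 when TWEAK replicate 2 was left out and 0.93 when TWEAK replicate 1 was. It was 0.23 when the first untreated list was left out and 0.87 when the second was. In MDA-MB-453 it was 0.06 ± 0.28, where the SE is shared with SKBR3 and does not describe MDA-MB-453 alone. With a replicate block TGFB2 was called (0.55 ± 0.08, limma adjusted p = 0.043), where each replicate number was higher with TWEAK, but the labels do not pair the numbers. Without TWEAK replicate 1, CDH2 (0.95, adjusted p = 0.0481) and ZEB1 (-0.53, adjusted p = 0.0479) were called. FN1 gave the lowest adjusted p in SKBR3, at 0.26 ± 0.13 (adjusted p = 0.403), and its TWEAK lists (14.8 and 17.2 kb) both exceeded the untreated ones (13.8 and 12.6 kb).

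In SKBR3, 1 member (FN1) had both TWEAK lists above both untreated lists in width, against 20.0% of windows, and 1 (ZEB1) had both below, against 14.3%. In MDA-MB-453, TWIST1 and FN1 were above, 2 members against 19.6%, and ZEB2, VIM and CDH2 were below, 3 members against 16.7%. The exact permutation test of 2 lists against 2 cannot give a p under 0.333. The shifts of width in MDA-MB-453 were small except for VIM, from 1.0 and 1.26 kb to 0.932 and 0.349 kb (-0.40 ± 0.28, log2, limma adjusted p = 1.0), and TWIST1, whose first untreated list had no peak (0.42 ± 0.32, adjusted p = 1.0). In top percentile, 1 member (ZEB1) had both TWEAK lists below both untreated lists in SKBR3, against 17.4% of windows. In MDA-MB-453, 2 members (ZEB1 and FN1) did, against 15.1%. Above were 0 members in each line, against 16.3% and 23.7%.

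**Figure D4:**
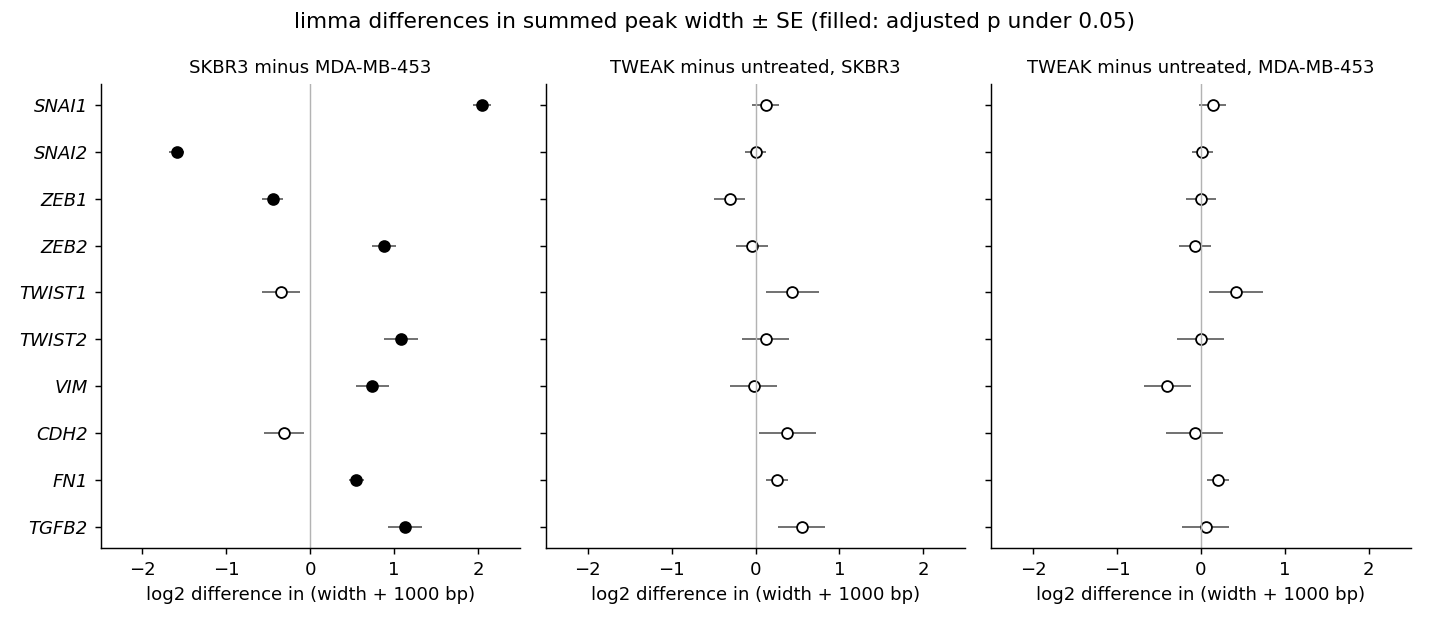
limma differences (log2 of width in bp + 1000) with SE bars for the 10 members between lines and with TWEAK in each line, filled where the adjusted p is under 0.05. The 8 filled points are all between lines, with SNAI1 highest at 2.05. The positions of SNAI2 and TWIST2 depend on the 1000 bp added, since a line is at 0 there, and all TWEAK differences lie between -0.40 and 0.55.

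At the level of single regions, 2 of the 55 member regions of SKBR3 were gained, meaning present in both TWEAK lists and neither untreated list, against 4.61% of SKBR3 regions. None was lost, 0 against 1.40%. Without the first TWEAK replicate, in which fewer peaks were called than in the second, 11 member regions counted as gained. The share of all SKBR3 regions gained without that list is not given here. In MDA-MB-453, 0 of 27 member regions were gained and 0 lost, against 1.33% and 1.30%, and 24 of the 27 were in all 4 lists.

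The first gained region lay inside CDH2 (chr18:28114808-28115983), 62.0 kb from its start. It ranked at percentiles 52.6 and 52.7 in the TWEAK lists. Its central stretch held the AP-1 and NF-kB matches printed above, but only the peak of TWEAK replicate 2 covered them. The narrower peak of TWEAK replicate 1 lay outside that stretch. Neither line had a CDH2 promoter peak with or without TWEAK. The second (chr20:49953117-49954959) lay inside RNF114, 28.0 kb upstream of SNAI1, at percentiles 22.7 and 19.0. The SNAI1 promoter peak was present in all SKBR3 lists, and its percentiles with TWEAK (72.6 and 58.9) spanned those without (71.9 and 67.8).

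In a list of 47 other genes of the pathway, 44 had a peak in at least 1 list, and 24 were called wider in SKBR3 and 11 in MDA-MB-453, with a median of 0.40 against 0.23 over all genes (log2). Of all windows 46.8% and 26.3% were so called, so the counts for the list are near the background, and no group of it was tested against those shares. Of 11 TGF-beta ligands, receptors and SMADs, 6 were wider in SKBR3 and 3 were narrower than in MDA-MB-453. The type I receptor gene TGFBR1 summed to 38.3 kb ± 2.23 in SKBR3 and 0.947 kb ± 0.35 in MDA-MB-453 (SD, n = 4, 4.35 ± 0.14 on the log2 scale, limma adjusted p = 6.05e-07), and the signal transducer gene SMAD2 followed at 1.17 ± 0.10. The ligand gene BMP4 was the reverse, with 3.28 kb ± 0.826 and 15.5 kb ± 0.485 (-1.97 ± 0.13, adjusted p = 1.03e-05).

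Of 12 other transcription factors linked to the transition, 10 were tested, 4 wider in SKBR3 and 4 in MDA-MB-453. TEAD1, a DNA-binding partner of YAP, was wider in SKBR3 by 2.52 ± 0.10 (log2, limma adjusted p = 1e-06). RUNX2, a runt-domain factor, was the only gene of the 47 called with TWEAK, and only in SKBR3, from 8.86 and 9.74 kb to 19.1 and 28.6 kb (1.24 ± 0.18, log2, limma adjusted p = 0.0266). In SKBR3, 1.57% of all windows were called wider with TWEAK. The 1 call among 44 tested genes was not tested against that share. No gene of the list was called narrower with TWEAK, and 0 were called in MDA-MB-453.

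Of 24 matrix, adhesion and cytoskeletal genes, 23 were tested, 14 wider in SKBR3 and 4 in MDA-MB-453, with a median of 0.86 (log2). Over all windows the shares were 46.8% and 26.3% and the median 0.23, and the group was not tested against these values. S100A4, a calcium-binding protein gene within the S100 cluster, had 42.0 kb ± 4.44 in SKBR3 and 1.09 kb ± 0.596 in MDA-MB-453. PDGFRB, a receptor of mesenchymal cells, had 11.1 kb ± 0.869 and 0.214 kb ± 0.151. TNC, which encodes the matrix protein tenascin-C, had 0.719 kb ± 1.0 and 17.9 kb ± 1.24.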

How the data were processed

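H3K27ac ChIP-seq peak lists of 8 libraries were used, 1 per library, and the input libraries were not analysed here. According to the submitters' notes and the study's methods, the authors trimmed reads (Trimmomatic), mapped them to hg38 (Bowtie2), called peaks per library against input (MACS2) and removed blacklisted regions, and versions and options are not given in the sources used here. The deposited lists give each peak a score, a fold enrichment (a ratio), a −log10 p-value and a −log10 q-value, and the score equals 10 times the −log10 q-value without its decimals. The lowest −log10 q-value was 1.0.

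The 520 peaks on other sequences were dropped. GENCODE 44 genes gave windows of 50 kb on each side, in which peaks were counted whole at 1 bp of overlap. Summed widths of windows with a peak in at least 1 list were tested with limma 3.58.1 (R 4.3.3, trended eBayes) on log2(width + 1000 bp) over all 8 lists, with Benjamini-Hochberg adjustment over all genes at 0.05. Percentiles of the top peak, 0 without a peak, were compared by exact permutation (Python 3.11.15, scipy 1.17.1). Named were all 10 members, their highest-ranked and gained regions, neighbours, and up to 3 genes per pathway group with the largest difference, of which 1 is not reported here. The fit was tested on simulated data. Members and lists were chosen with earlier results of these data known. Alternatives covered windows, thresholds, list size, filters, pseudocount, scaling, merging, start sites and single lists.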

Additional observations from a re-analysis of the deposited data

How the results depend on the processing

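The difference between lines kept its direction and its call at SNAI1, ZEB1 and TGFB2 in every alternative run. The calls of SNAI2 (adjusted p = 0.252) and ZEB2 (0.183) were lost in gene bodies. Within gene bodies FN1 reversed to -0.79 (log2) and VIM fell to 0.0, and 3 members were called wider in SKBR3 in place of 6. Median subtraction gave 4 wider in MDA-MB-453 in place of 2. The top percentile did not overlap at 4 members in gene bodies, under q below 1e-05 or with equal list size, in place of 8. Regions in SKBR3 only numbered 4 in gene bodies, 3 under the stricter threshold (2 of SNAI1, 1 of FN1) and 7 with equal list size, in place of 14, and regions in MDA-MB-453 only numbered 3 under the stricter threshold (SNAI2, ZEB1 and FN1), in place of 5. Members with a start-site peak in all MDA-MB-453 lists numbered 2 under the stricter threshold or at the own 5′ end. Shares of all genes or regions refer to the full lists and 50 kb windows, except at the own 5′ end and after median subtraction.

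Regions gained with TWEAK in SKBR3 numbered 1 with peaks up to 1 kb apart merged, with equal list size and in gene bodies, and 1 was lost under the stricter threshold (TGFB2) and with equal list size (ZEB1). In MDA-MB-453, 1 (CDH2) was gained under the stricter threshold. The cause was not tested.

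Leaving out 1 list at a time gave 5 to 6 members wider in SKBR3, 2 to 4 wider in MDA-MB-453 (4 without SKBR3 TWEAK replicate 2), 8 to 8 without overlap in percentile, 14 to 16 SKBR3-only and 5 to 6 MDA-MB-453-only regions, and start-site peaks at 1 to 4 members in SKBR3 (4 without untreated replicate 1). Members called with TWEAK in SKBR3 ranged from 0 to 2, the 2 being CDH2 (0.95, adjusted p = 0.0481) and ZEB1 (-0.53, adjusted p = 0.0479) without TWEAK replicate 1, and CDH2 reversed to -0.18 without TWEAK replicate 2. Gained regions in SKBR3 ranged from 3 to 11 (11 without TWEAK replicate 1, 4 and 5 without untreated replicates 1 and 2) and lost ones from 0 to 4 (4 without untreated replicate 1), and in MDA-MB-453 both ranged from 0 to 1.

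A replicate block raised the members called with TWEAK in SKBR3 from 0 to 1, TGFB2 (0.55 ± 0.08, limma adjusted p = 0.043), and changed no other member count. Deviations of replicates 1 correlated at 0.458 in SKBR3 and -0.0366 in MDA-MB-453 over 18549 genes, and the labels do not pair the numbers. Unknown read depth limits every presence call.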
